A study of Mus musculus with 9 samples.

Results

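The miR-378 family of the mouse was followed in small RNA from exosomes, membrane vesicles shed by cultured cells. Its 5 annotated mature members, mmu-miR-378a-3p, mmu-miR-378a-5p, mmu-miR-378b, mmu-miR-378c and mmu-miR-378d, were taken by name from the 1101 mature miRNAs listed in at least 1 library. The family was chosen on a readout, because the miR-378d count differs strongly between libraries. The values of miR-378d are therefore given as a description with no test, while the other 4 members were tested. The exosomes came from RAW264.7, a mouse macrophage line, and were collected by ultracentrifugation from cultures in DMEM with fetal bovine serum. Cells were either left without treatment or kept with silica, the mineral dust behind silicosis, for 24 h or 48 h, and each of the 3 groups had 3 libraries. The design text calls these independent repetitions, with no word on separate cultures. The p-values therefore set differences between groups against the spread between these libraries, which may not be that between separate cultures. All groups are of this 1 cell line, and the sources used here give neither the silica dose nor how long the untreated cells were cultured.

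MicroRNAs of this family are short RNAs that guide Argonaute proteins to messenger RNAs, mainly by pairing of the seed near their 5′ end. The gene of miR-378a lies in an intron of Ppargc1b, which encodes the coactivator PGC-1beta of mitochondrial and fatty acid metabolism, and both arms of its hairpin give mature miRNAs. The family is known for its abundance in muscle and fat and for a part in energy metabolism, and miR-378a has been described as induced by interleukin 4 in alternatively activated mouse macrophages. The miRNAs miR-378b, miR-378c and miR-378d come from genes of their own at other places in the genome.

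The mature sequences of the 3 paralogs show how far they can be told apart by sequencing. They are written 5′ to 3′ from RefSeq (GRCm38.p6), in which 3 of the 5 members were matched, with the seed, bases 2 to 8, in capitals.
mmu-miR-378b: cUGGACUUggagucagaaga
mmu-miR-378c: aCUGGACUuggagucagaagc
mmu-miR-378d: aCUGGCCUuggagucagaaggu
With positions counted from 1 at the 5′ end of miR-378c, miR-378d differed from it by A6C, inside the seed, and by C21G, and it ended 1 base later. The start of miR-378b lay at position 2 of miR-378c, and the only substitution between them was C21A. The same run of bases is therefore read as another seed in miR-378b.

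The 3 hairpins lie on different chromosomes of GRCm38.p6. The miR-378b hairpin, at chr11:88352773-88352864 on the plus strand, lies in an intron of Msi2, a gene of the minus strand, by GENCODE M21. The miR-378c hairpin, at chr14:46954830-46954928 on the minus strand, lies in an intron of Samd4, a gene of the plus strand. No other gene of that annotation overlaps the miR-378d hairpin at chr10:126710282-126710391 on the minus strand. It is shown because miR-378d is the member that varied most, with the mature miRNA in capitals at bases 16 to 37 of 110.
mir-378d hairpin: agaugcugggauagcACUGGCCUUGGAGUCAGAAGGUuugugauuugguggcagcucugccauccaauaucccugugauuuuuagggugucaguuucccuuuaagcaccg
The sources used here do not say how reads matching several members were assigned, and the split of counts between members with such similar sequences is uncertain for that reason.

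Mature miRNA counts per library ran from 2158418 to 8331451. Levels are given as CPM, mature miRNA counts scaled to library size with TMM factors, which correct for a few very abundant miRNAs. A count of 3 corresponds to 0.360 to 1.39 CPM of mature reads before that scaling, and floors and intervals cover counting error only. All 5 members were listed in all 9 libraries and passed the filter on low counts, as did 453 miRNAs in all. The summed level of 7 macrophage and myeloid miRNAs was 70806 to 107348 CPM. Nearly all of it was miR-146a-5p, a brake on inflammatory signalling, and miR-21a-5p, which led in untreated library 2 and 48 h library 2. The member miR-155-5p stood at 577 to 1034 CPM and miR-223-3p at 44.7 to 184 CPM. Levels were 14.5 to 241 CPM for miR-142a-3p and 19.2 to 226 CPM for miR-142a-5p, and miR-511-3p reached at most 2.07 CPM. Untreated library 2 and 48 h library 2 listed the most mature miRNAs, 829 and 912. They were taken to lie apart from the other 7 after seeing the data, and no measure of distance between libraries is given here. Values without these 2 libraries are given where they change a direction.

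The leading member was mmu-miR-378a-3p, the main product of the Ppargc1b intron. It stood at 19194, 31880 and 9198 CPM in untreated libraries 1, 2 and 3. At 24 h it stood at 25149, 17214 and 18950 CPM, and at 48 h at 10341, 17951 and 9410 CPM. The groups overlapped, and both the highest and the lowest library were untreated. It ranked between 7 and 26 among the mature miRNAs of a library, from 35790 to 186742 counts. Its group means were 20091 ± 11368 CPM in untreated, 20438 ± 4172 CPM at 24 h and 12567 ± 4686 CPM at 48 h (SD, n = 3).

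The other arm of the same hairpin, mmu-miR-378a-5p, was far less abundant. In untreated libraries 1, 2 and 3 it stood at 65.7, 283 and 52.2 CPM, at 24 h at 76.7, 109 and 108 CPM, and at 48 h at 63.6, 242 and 62.9 CPM. Untreated library 2 and 48 h library 2 were the high ones, and they are the pair of libraries taken to lie apart. Its group means, in the order of exposure, were 134 ± 129, 97.9 ± 18.3 and 123 ± 103 CPM (SD, n = 3).

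The second most abundant member in most libraries was mmu-miR-378b. Untreated libraries 1, 2 and 3 held 454, 744 and 292 CPM, those of 24 h 493, 308 and 398 CPM, and those of 48 h 254, 297 and 263 CPM. On this scale the 3 libraries of 48 h lay close together and below all of 24 h. They overlapped with untreated only through 48 h library 2 and untreated library 3. Group means were 497 ± 229, 400 ± 92.1 and 271 ± 22.6 CPM (SD, n = 3).

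With 55 to 403 counts per library, mmu-miR-378c was on average the least abundant of the 4 tested members. It stood at 50.8, 68.8 and 40.2 CPM in untreated libraries 1, 2 and 3, at 83.7, 51.4 and 28.5 CPM at 24 h, and at 19.1, 30.9 and 33.6 CPM at 48 h. On this scale all 3 libraries of 48 h lay below all 3 untreated ones, and 24 h overlapped with both. Group means were 53.3 ± 14.5, 54.5 ± 27.7 and 27.9 ± 7.74 CPM (SD, n = 3).

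The member behind the choice of the family, mmu-miR-378d, was either above miR-378b or below miR-378c, depending on the library. Untreated libraries 1, 2 and 3 held 81, 12185 and 3963 counts, or 15.1, 2080 and 900 CPM. The 24 h libraries held 5335, 36 and 32 counts, or 1378, 5.97 and 16.6 CPM. At 48 h there were 24, 106 and 24 counts, or 6.93, 11.1 and 5.53 CPM. Untreated library 2, 24 h library 1 and untreated library 3 were thus high, and no library lay between 16.6 and 900 CPM. The step from the third to the fourth library in this order was 54.3-fold, against 1.08-fold to 1.60-fold for every other step. The high state occurred in 2 of 3 untreated libraries, 1 of 3 at 24 h and 0 of 3 at 48 h.

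**Figure D1:**
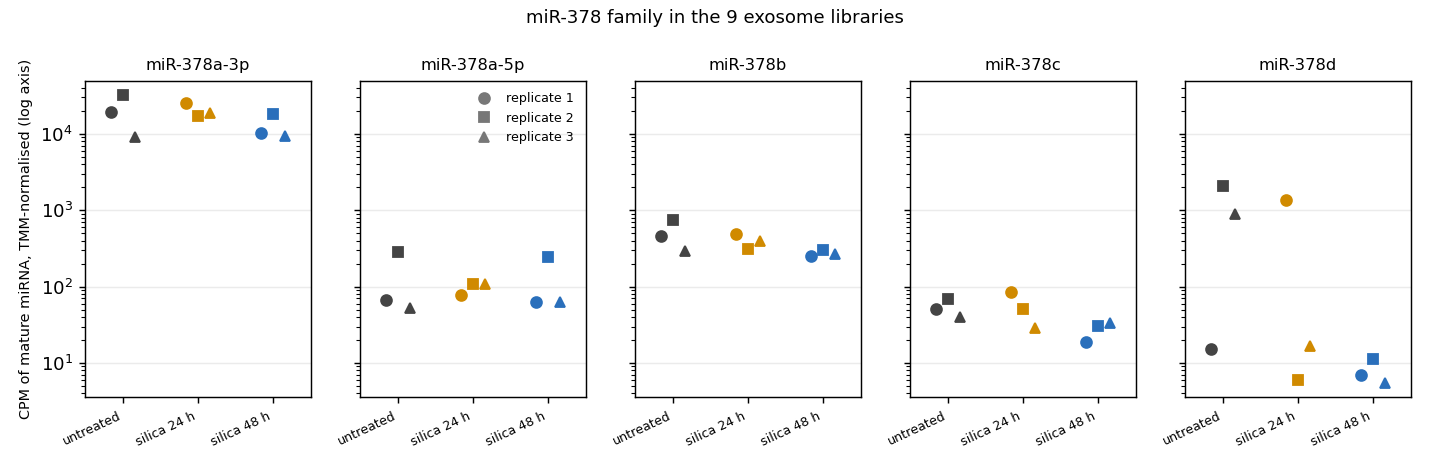
Level of each miR-378 member in every library (vertical log axis, TMM-normalised CPM) by group, with 1 marker shape per replicate number. The 9 points of miR-378a-3p lie between 9198 and 31880 CPM, while those of miR-378d fall into 3 libraries at 900 CPM or more and 6 at 16.6 CPM or less.

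Group means of miR-378d, 998 ± 1036, 467 ± 789 and 7.86 ± 2.90 CPM in untreated, 24 h and 48 h (SD, n = 3), average over high and low libraries in the first 2 groups. Its rank within a library ran from 44 to 326. The 3 libraries with the high level had 5043493, 4009984 and 4414054 mature counts and listed 829, 595 and 575 mature miRNAs. The other 6 libraries ran from 2158418 to 8331451 mature counts and from 486 to 912 listed miRNAs. A part of depth in the miR-378d level was not tested.

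Relative to miR-378a-3p of the same library, a measure that needs no scaling between libraries, the 3 paralogs again differed in how steady they were. The reads of miR-378b came to 1.65% to 3.18% of those of miR-378a-3p, a 1.92-fold range over the 9 libraries. For miR-378c the ratio was 0.150% to 0.437%, a 2.90-fold range, and for the 5p arm 0.305% to 1.35%, a 4.42-fold range. The ratio of miR-378d ran from 0.0347% in 24 h library 2 to 9.78% in untreated library 3, a 282-fold range. In untreated library 3 the ratios of miR-378b and miR-378c were at their highest as well.

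**Figure D2:**
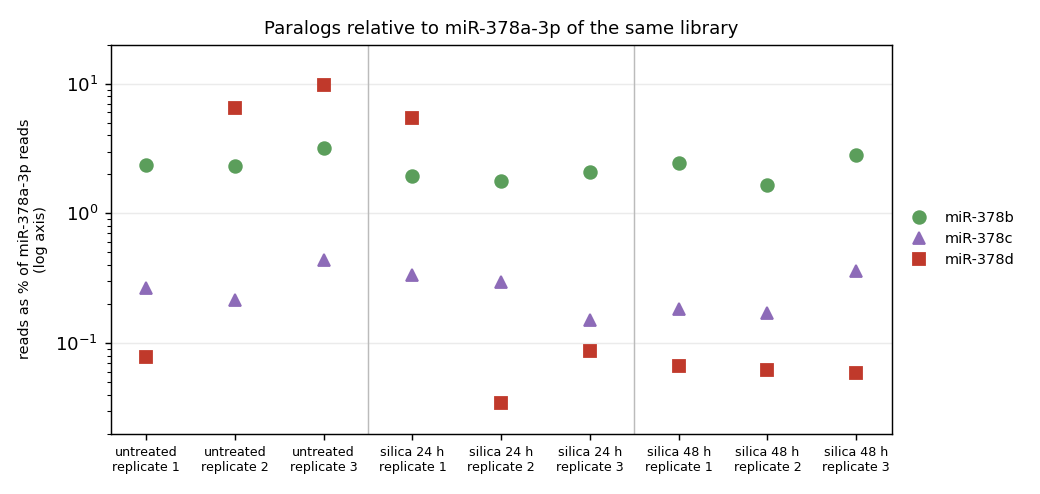
Reads of miR-378b, miR-378c and miR-378d as a percent of the miR-378a-3p reads of the same library (vertical log axis), for the 9 libraries in order of group and replicate. The miR-378b ratio stays between 1.65% and 3.18%, whereas the miR-378d ratio is above it in 3 libraries and below that of miR-378c in the other 6.

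The order of the members was partly fixed. Reads of miR-378a-3p exceeded those of miR-378b in 9 of 9 libraries, by 31.5-fold to 60.5-fold, and miR-378b exceeded the 5p arm in 9 of 9, by 1.23-fold to 6.92-fold. The 5p arm was above miR-378c in 8 of 9 libraries. The place of miR-378d was above all of miR-378b, the 5p arm and miR-378c in the 3 high libraries and below all of them in the other 6.

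Within the summed reads of the 4 members other than miR-378a-5p, namely miR-378a-3p, miR-378b, miR-378c and miR-378d, the leading member took 88.2% to 98.1%. The share of miR-378d was 5.98% in untreated library 2 (exact Clopper-Pearson 95% interval 5.88% to 6.09%), 8.63% in untreated library 3 (8.37% to 8.89%) and 5.08% in 24 h library 1 (4.95% to 5.22%). In the other 6 libraries it was 0.0339% to 0.0855%, and the upper bounds of their intervals reached at most 0.121%.

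Summed over the same 4 members, the level was 19714, 34774 and 10430 CPM in untreated libraries 1, 2 and 3. It was 27104, 17580 and 19393 CPM at 24 h and 10621, 18290 and 9712 CPM at 48 h. Group means were 21639 ± 12285, 21359 ± 5057 and 12874 ± 4712 CPM, and without miR-378d 20641 ± 11610, 20892 ± 4282 and 12866 ± 4709 CPM (SD, n = 3). The groups overlapped, and miR-378d made up at most 8.63% of the sum in any library. With vesicle RNA, fewer vesicles that carry a miRNA and less of it per vesicle cannot be told apart.

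At the shorter exposure, 24 h of silica against untreated cells, 0 of the 4 tested members passed. The log2 fold change was 0.02 ± 0.47 (SE) for miR-378a-3p, -0.45 ± 0.77 for miR-378a-5p, -0.31 ± 0.52 for miR-378b and 0.04 ± 0.56 for miR-378c. By the quasi-likelihood test of edgeR, with p-values adjusted after Benjamini and Hochberg over the 453 miRNAs, adjusted p-values were 0.977, 0.874, 0.874 and 0.977. Over all tested miRNAs 0% were called, with 46 at an unadjusted p under 0.05, and DESeq2 called 4 and limma-voom 0. No member had groups that did not overlap, where 6.18% of all tested miRNAs lay lower in all 24 h libraries than in all untreated ones and 10.4% lay higher. The value of miR-378d, -1.10 on the log2 scale, moved to -6.59 without 24 h library 1 and to 0.07 without untreated library 2.

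Between 48 h and untreated cells, the longer exposure, 4 of 4 tested members had a lower mean at 48 h, and 0 passed the test. The log2 fold change was -0.68 ± 0.47 (SE) for miR-378a-3p, -0.12 ± 0.77 for miR-378a-5p, -0.87 ± 0.52 for miR-378b and -0.93 ± 0.57 for miR-378c, and all 4 had an adjusted p of 0.997 by the same edgeR fit. The sign of the 5p arm turned under 6 of 19 alternatives, with 0.10 when untreated library 2 and 48 h library 2 were left out, while the other 3 stayed below 0 in all 19. Of all tested miRNAs 0% were called, with 4 at an unadjusted p under 0.05. Here DESeq2 called 1, which was miR-378d itself, the member the family was chosen on, and limma-voom 0. On the CPM scale, the 48 h libraries of miR-378c lay below all untreated ones. This held for 1.55% of the tested miRNAs in this direction and for 2.21% in the other. The libraries of miR-378d did the same on that scale, with 11.1 CPM in 48 h library 2 against 15.1 CPM in untreated library 1. Scaled to all counted reads of a library (RPM), the order of these 2 miR-378d values turned, with 5.68 against 5.36 RPM. The miR-378c groups overlapped in RPM as well, with 15.81 in 48 h library 2 against 15.77 in untreated library 3. The fitted value of miR-378d was -6.98 on the log2 scale, and -7.62 to -5.84 when any 1 library was left out. It is given with no test, because the family was chosen on the spread of miR-378d between libraries.

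Set against 24 h, the 48 h group was lower in miR-378a-3p, miR-378b and miR-378c, by values that did not pass the test. The log2 fold change was -0.70 ± 0.47 (SE), -0.56 ± 0.52 and -0.97 ± 0.57 in that order, and 0.33 ± 0.77 for miR-378a-5p. Adjusted p-values in edgeR's quasi-likelihood test were 0.568, 0.662, 0.511 and 0.854. On the CPM scale, the 48 h libraries of miR-378b lay below all of 24 h. This held for 10.4% of the tested miRNAs in this direction and for 10.4% in the other. In RPM the 2 groups overlapped, with 152 in 48 h library 2 against 129 and 99.7 in 24 h libraries 2 and 3. Of the 453, 0% were called, with 44 at an unadjusted p under 0.05. DESeq2 called 6, with miR-378d among them, and limma-voom 0. For miR-378d the fitted value was -5.88 on the log2 scale, and -0.42 without 24 h library 1. This comparison and the one before it share the 48 h libraries, as the first 2 share the untreated ones, so their values for a member are not independent.

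**Figure D3:**
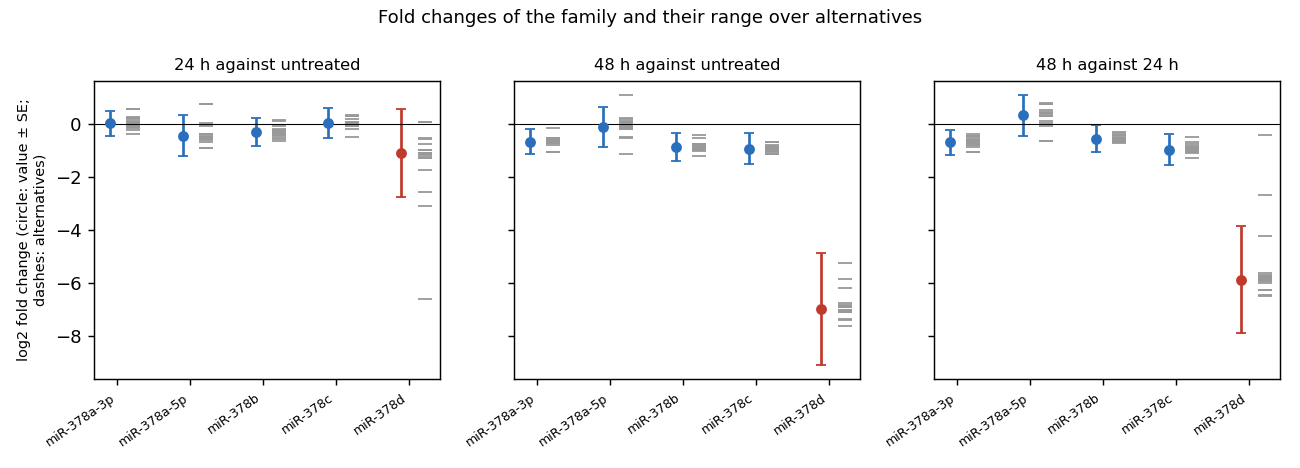
Log2 fold change of each member (vertical axis) in the 3 comparisons, as the fitted value with its standard error (circle and bar) and under the alternatives of processing or libraries (dashes). The circles of the 4 tested members lie between -0.97 and 0.33 and their dashes between -1.28 and 1.08, and the miR-378d value at 24 h against untreated spans -6.59 to 0.07 when 1 library is left out.

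The balance of the 2 arms of miR-378a is a ratio within a library. The 5p arm took 0.341%, 0.880% and 0.565% of the reads of both arms in untreated libraries 1, 2 and 3. It took 0.304%, 0.629% and 0.566% at 24 h and 0.611%, 1.33% and 0.664% at 48 h. The groups overlapped, and the highest share was in 48 h library 2. Group means were 0.595% ± 0.270, 0.500% ± 0.172 and 0.869% ± 0.402 (SD, n = 3). A two-sided exact permutation test gave p = 0.7 (24 h against untreated), 0.4 (48 h against untreated) and 0.2 (between the times), or 0.7, 0.6 and 0.6 after adjustment over 6 tests. The smallest p that 3 against 3 libraries allow is 0.1. Between libraries of the same replicate number, the share was higher at 48 h than in untreated in 3 of 3 pairs, by 0.0994 to 0.452 percentage points, and higher at 48 h than at 24 h in 3 of 3, by 0.0983 to 0.703. A two-sided exact sign-flip test of these pairs, chosen after seeing the data, gave p = 0.25 in both comparisons, the smallest that 3 pairs allow.

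Outside the mature class, the tables hold a precursor row for the mir-378 family as a whole, given in RPM, which scales reads to all counted reads of a library. It stood at 196, 136 and 126 RPM in untreated libraries 1, 2 and 3, at 293, 175 and 150 RPM at 24 h, and at 137, 22.1 and 166 RPM at 48 h. The 48 h library 2, which had the highest 5p share, had the lowest precursor level, from 413 reads. Means were 153 ± 38.1, 206 ± 76.1 and 108 ± 76.0 RPM (SD, n = 3), and the two-sided exact permutation p was 0.4, 0.6 and 0.2 in the order of comparisons above, or 0.6, 0.7 and 0.6 after adjustment over the same 6 tests. In pairs of the same number it was higher at 24 h than in untreated in 3 of 3, by 24.2 to 96.3 RPM, with an exact sign-flip p of 0.25. The tests of this row were chosen after its values were seen. The 3 libraries high in miR-378d had 136, 126 and 293 RPM of it, both below and above those of the other libraries.

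**Figure D4:**
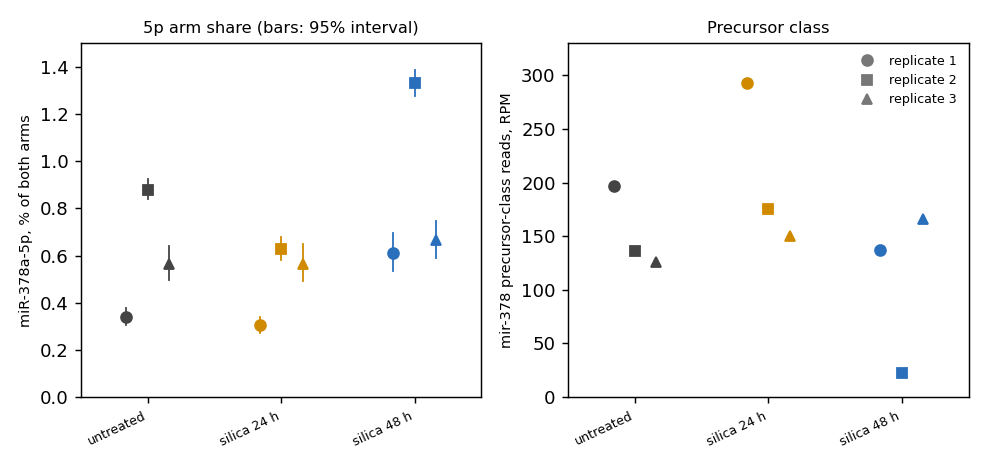
Left, miR-378a-5p as a percent of the reads of both miR-378a arms in each library, with exact 95% binomial intervals; right, reads of the mir-378 precursor row in RPM. The 48 h library 2 has the highest 5p share, 1.33%, and the lowest precursor level, 22.1 RPM.

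The members differed in how closely they followed each other over the 9 libraries, which share depth and scaling. On log2(CPM + 1), Pearson's r with miR-378a-3p was 0.882 for miR-378b, 0.678 for miR-378a-5p, 0.674 for miR-378c and 0.421 for miR-378d. Spearman's rho was 0.917, 0.700, 0.533 and 0.617, so by ranks miR-378d followed miR-378a-3p more closely than miR-378c did. Between miR-378d and miR-378b r was 0.657, and between miR-378d and miR-378c 0.672. Of the miRNAs outside the family, miR-503-3p (r = 0.812), miR-7030-5p (0.805), miR-702-5p (0.788), miR-223-3p (0.778), a myeloid miRNA, and miR-27b-5p (0.761) were most like miR-378a-3p by r. Spearman's rho was 0.817, 0.745, 0.783, 0.583 and 0.550 in that order, and miR-7030-5p ran only from 0 to 4.47 CPM. The miRNAs outside the family most like miR-378d by r were miR-200a-3p (r = 0.651), miR-324-3p (0.649), miR-1843a-5p (0.647), miR-27a-3p (0.623) and miR-7666-3p (0.614). Their rho was 0.600, 0.567, 0.583, 0.417 and 0.377, and miR-7666-3p ran from 0 to 12.7 CPM. The highest library of miR-200a-3p, 26.8 CPM, was 5.78-fold above its lowest, against 376-fold for miR-378d.

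The widest gap between neighbouring libraries, when the 9 values of a miRNA are put in order, describes how far the libraries fall into separate sets. It was 5.68 on the log2(CPM + 1) scale for miR-378d, the second widest of 453 after 6.54 for miR-3074-5p, and the median over all tested miRNAs was 0.91. The family was chosen because miR-378d differs strongly between libraries, so a wide gap follows from the choice and its rank only describes it. The other members ranked 166 (miR-378a-5p), 296 (miR-378a-3p), 358 (miR-378b) and 373 (miR-378c) by the same measure.

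**Figure D5:**
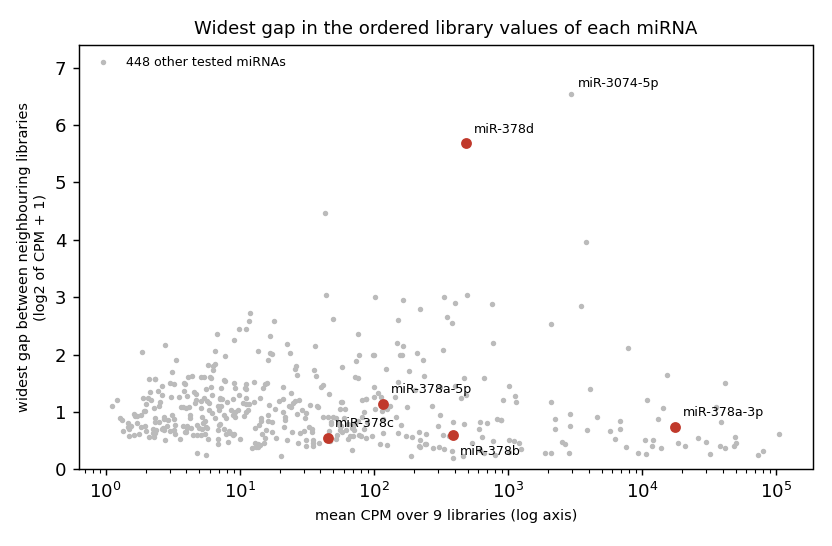
Widest gap between neighbouring libraries (vertical axis, log2 of CPM + 1) against mean level over 9 libraries (horizontal log axis) for the 453 tested miRNAs, with the 5 members in red. The miR-378d gap of 5.68, wide by the choice of the family, is second to that of miR-3074-5p, and the other 4 members lie between 0.56 and 1.14.

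A pair of miRNA lists written from general knowledge gives the setting for the roles of the family. In a list of 15 miRNAs of macrophage polarisation, 14 were tested and 0 passed in any comparison by edgeR's quasi-likelihood test. Of these, 9 were higher and 5 lower at 24 h than in untreated cells (median log2 fold change 0.16, against -0.07 over all tested), and again 9 and 5 at 48 h (0.09 against 0.03). Between 48 h and 24 h, 7 were higher and 7 lower (0.02 against 0.14). The most abundant was let-7c-5p, whose group means in the order of exposure were 76211 ± 26800, 140227 ± 19243 and 100108 ± 45598 CPM (SD, n = 3), followed by miR-99a-5p and miR-146a-5p.

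A list of 18 miRNAs of energy metabolism had 13 tested members, of which 0 passed in any comparison by the same test. At 24 h against untreated, 4 were higher and 9 lower (median log2 fold change -0.73, against -0.07 over all tested). The split was 4 and 9 at 48 h against untreated (-0.19 against 0.03) and 9 and 4 at 48 h against 24 h (0.54 against 0.14). Its most abundant member, miR-27a-3p, a repressor of fat cell formation, had group means of 60146 ± 12602, 39848 ± 8162 and 45800 ± 4658 CPM in the order of exposure (SD, n = 3). It was followed by miR-27b-3p and miR-34a-5p.

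Markers of tissues rich in miR-378, and of red blood cells and liver, were measured as well. The summed level of 7 miRNAs of skeletal and cardiac muscle was 31.3 to 37.5 CPM in untreated, 19.2 to 27.3 CPM at 24 h and 24.2 to 36.7 CPM at 48 h, most of it miR-499-5p. The heart miRNAs miR-208a-3p and miR-208b-3p were listed in no library, miR-1a-3p was at 0 in all 48 h libraries, and miR-133b-3p and miR-206-3p were at 0 in all untreated ones. The sum of 5 adipose and mesenchymal miRNAs ran from 38.2 to 1555, 138 to 665 and 97.7 to 625 CPM in the 3 groups, with miR-145a-5p at 0 in all untreated libraries. Its upper values come from miR-199a-3p, at 1526, 599 and 583 CPM in untreated library 3, 24 h library 1 and 48 h library 2. The erythroid sum was 152 to 647, 882 to 3387 and 416 to 791 CPM in untreated, 24 h and 48 h, nearly all of it miR-451a. At 24 h against untreated the log2 fold change was 2.14 for miR-451a, 0.94 for miR-486b-5p and -0.13 for miR-486a-5p. The liver sum was 585 to 1626, 1519 to 2770 and 704 to 1397 CPM in the 3 groups. The part of these cell types, or of the serum in the medium, in the family's values was not tested.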

How the data were processed

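Small RNA of exosomes was measured in 9 libraries, 3 a group. Per the submitters' processing notes, Trim Galore, Bowtie and HTSeq were used with the build mm10. The authors deposited 1 table per library. Its second column holds counts of whole reads per small RNA. A further column, TPM per the file headers, is RPM of all counted reads with no length correction. The RPM values given here, also for the precursor row, were computed from the counts in the same way. Mature miRNAs absent from a table were set to 0 counts.

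The members and lists were chosen with earlier results of these data known. The named miRNAs are the members, the 5 most like miR-378d and miR-378a-3p by Pearson's r, and the 3 most abundant of each list; others were chosen after their values were seen. Of 1101 mature miRNAs, filterByExpr with a minimum count of 10 kept 453. One edgeR 4.0.16 quasi-likelihood fit (R 4.3.3, TMM factors 0.829 to 1.16, 6 residual degrees of freedom, no block) covered all 9 libraries, with Benjamini-Hochberg adjustment and a threshold of 0.05. The biological coefficient of variation of the fit was 0.756. Depth was 2158418 to 8331451 mature counts per library. Alternatives were other scalings, no filter, DESeq2 1.42.0, limma-voom 3.58.1, only the 2 groups, a replicate block and libraries left out.

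Deviations from the group mean over the tested miRNAs were compared between libraries of the same and of different numbers. Between 24 h and untreated, r was 0.135 (number 1), 0.469 (number 2) and 0.163 (number 3), and -0.309 to 0.182 for different numbers. Between 48 h and untreated it was 0.173, 0.645 and 0.347, and -0.565 to 0.393 for different numbers. In both comparisons only number 2 lay above every pair of different numbers, and the labels state no pairing. Between the times it was -0.0593, 0.296 and 0.312, and -0.381 to 0.0744 for different numbers.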

Additional observations from a re-analysis of the deposited data

How the results depend on the processing

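None of the 228 values of the 4 tested members under an alternative had an adjusted p under 0.05 (lowest 0.301), and 31 had the other sign. For miR-378a-3p, miR-378b and miR-378c at 48 h, against either group, no sign turned. The sign turned at 24 h against untreated for miR-378a-3p with no factors (-0.083), all counted reads as library size (-0.17) and no filter (-0.066), and for miR-378c under these (-0.028, -0.083 and -0.036) and limma-voom (-0.040). Leaving out 1 library gave -0.40 to 0.56 for miR-378a-3p, -0.67 to 0.13 for miR-378b and -0.48 to 0.32 for miR-378c. The 5p arm ran from -0.93 to 0.76 there, from -1.14 to 1.08 at 48 h against untreated and from -0.64 to 0.77 between the times. It turned at 48 h against untreated with all counted reads (0.071) and limma-voom (0.052). Without untreated library 2 and 48 h library 2 together, an alternative chosen after seeing the data, it was 0.74, 0.10 and -0.65 in the 3 comparisons, and miR-378b at 24 h was 0.12. The 5p arm share at 24 h against untreated ran from -0.222 to 0.0468 percentage points without 1 library. The cause was not tested.

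With a replicate block in the fit, 3 miRNAs were called at 24 h against untreated, 0 at 48 h against untreated and 3 between the times by edgeR. None was a tested member, and the 5p arm was at 0.039 for 24 h against untreated and at -0.077 between the times. Without the block the count was 0 in each comparison. Pairing same-numbered libraries gave the 5p arm share an exact sign-flip p of 0.5 at 24 h against untreated and 0.25 in both other comparisons. No filter gave 7, 1 and 16, DESeq2 gave 4, 1 and 6, and upper-quartile factors and a fit of the 2 groups each gave 1 at 24 h. With no filter and with DESeq2, miR-378d was among the calls at 48 h against either group. These calls are no test of it, because the family was chosen on its spread. Without 48 h library 1, 1 was called at 24 h against untreated and 1 between the times, and without 48 h library 2, 1 at 24 h. Leaving out 1 library thus gave 0 to 1, 0 and 0 to 1. With all counted reads as library size the median log2 fold change over all tested miRNAs moved from -0.07 to -0.21 at 24 h, from 0.03 to 0.14 at 48 h and from 0.14 to 0.36 between the times. Depth limits miR-378d most in its 6 low libraries, with 24 to 106 counts each.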

Other observations

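Other miRNAs also fell into separate sets of libraries, chosen here after their values were seen. miR-3074-5p, the only tested one with a wider gap than miR-378d, stood at 8911, 11.95 and 3522 CPM in untreated libraries 1, 2 and 3, at 1206, 3.81 and 1662 CPM at 24 h, and at 6.93, 3537 and 7707 CPM at 48 h. It was low in 1 library of each group, and untreated library 2, high in miR-378d, was among its low ones.

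The next widest gaps with at least 2 libraries on each side belonged to miR-199b-3p (3.04 on the log2 scale) and miR-199a-3p (3.01), whose mature sequences of 22 bases are identical in RefSeq. In untreated libraries 1, 2 and 3, miR-199a-3p stood at 9.68, 27.1 and 1526 CPM and miR-199b-3p at 540, 532 and 16.8 CPM. At 24 h they stood at 599, 71.4 and 60.1 CPM and at 15.8, 693 and 731 CPM, and at 48 h at 69.1, 583 and 63.6 CPM and at 782, 64.0 and 1059 CPM. In each library 1 of the 2 was low where the other was high, and their sum ran from 549 to 1543 CPM. Of the 3 libraries high in miR-199a-3p, untreated library 3 and 24 h library 1 were high in miR-378d as well, while 48 h library 2 was not. Whether the level of miR-378d depends on the counting of similar sequences was not tested.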
